A study of Mus musculus with 7 samples.

Results

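Glycolysis and the response to low oxygen were followed across the leukocytes of a mouse glioma through 38 genes, chosen by symbol. Of these, 23 encode the steps from glucose entry to lactate export, and 15 are genes known to be induced by hypoxia. All 38 were found among the 32285 genes of the deposited count matrices. Aldoa appeared under 2 identifiers, of which ENSMUSG00000030695, with 221435 molecules in the gated cells, was used and the other, with 16, left out. Eno1 (63819 molecules) has a near-identical copy, Eno1b (1322 molecules), so reads of this pair may be split and the level of Eno1 is uncertain.

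Glycolysis turns glucose into pyruvate through transporters (Slc2a1 and Slc2a3, encoding GLUT1 and GLUT3), hexokinases (Hk1, Hk2), phosphofructokinases and the enzymes of the lower pathway down to Pkm. Ldha then makes lactate, which the transporters Slc16a3 and Slc16a1 move across the membrane. In low oxygen the HIF-1α and HIF-2α proteins (genes Hif1a and Epas1) escape degradation and raise many of these genes together with others such as Vegfa, Bnip3, Ddit4, Adm and Bhlhe40. Both metabolic settings are well known in glioma, where inflammatory macrophages with the nitric oxide synthase Nos2, macrophages with the arginase Arg1, resident microglia and lymphocytes share a poorly perfused tissue.

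The cells were CD45+ DRAQ7- leukocytes (DRAQ7 enters dead cells) sorted from the left hemisphere of brains bearing GL261, a transplanted mouse glioma line. Hosts were wild-type female mice 8 to 9 weeks old, treated from day 7 and harvested on day 21. The 4 groups were untreated (1 library), PT2385, an inhibitor of HIF-2α, at 10 mg/kg (2 libraries), immune checkpoint blockade with antibodies against PD-1 and TIM-3, called ICB (2 libraries), and PT2385 with ICB, called combination (2 libraries). Each library was a pool of cells from 2 mice, 14 mice in all, so a p-value below measures the spread between pools. The labels describe a vehicle and isotype control antibodies without saying which the untreated mice received. A further untreated pool is not analysed here. The PT2385, ICB and interaction comparisons rest partly on the lone untreated library, whose variation is taken to equal that of the others, and the treatment comparisons share libraries with each other.

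Promoters of 4 members are shown because these genes had the smallest p-values, among members with a promoter at hand, in the contrast of macrophages with microglia given below. Each runs 5′ to 3′ on the gene's strand, from 250 bases before to 50 bases after the start, from RefSeq on GRCm38.p6. Capitals mark ACGTG or GCGTG on either strand, the core letters of the hypoxia response element to which HIF dimers bind. Eno1 (enolase) lies at chr4:150236458-150236757 on the plus strand. Pfkp (platelet-type phosphofructokinase) lies at chr13:6648722-6649021, Higd1a (a mitochondrial protein induced by hypoxia) at chr9:121857747-121858046 and Gpi1 (glucose phosphate isomerase) at chr7:34230287-34230586, all on the minus strand.
Eno1: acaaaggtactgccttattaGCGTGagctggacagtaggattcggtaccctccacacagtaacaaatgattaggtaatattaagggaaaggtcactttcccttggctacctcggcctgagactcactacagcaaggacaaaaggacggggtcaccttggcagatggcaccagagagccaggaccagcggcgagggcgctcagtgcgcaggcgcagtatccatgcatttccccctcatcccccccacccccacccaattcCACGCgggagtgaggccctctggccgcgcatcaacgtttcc
Pfkp: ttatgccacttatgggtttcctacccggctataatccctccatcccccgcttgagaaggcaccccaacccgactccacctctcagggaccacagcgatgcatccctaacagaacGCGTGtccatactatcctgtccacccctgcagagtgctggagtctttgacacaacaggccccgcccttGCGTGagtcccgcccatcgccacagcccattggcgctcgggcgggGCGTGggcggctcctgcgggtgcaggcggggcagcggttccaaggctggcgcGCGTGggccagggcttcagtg
Higd1a: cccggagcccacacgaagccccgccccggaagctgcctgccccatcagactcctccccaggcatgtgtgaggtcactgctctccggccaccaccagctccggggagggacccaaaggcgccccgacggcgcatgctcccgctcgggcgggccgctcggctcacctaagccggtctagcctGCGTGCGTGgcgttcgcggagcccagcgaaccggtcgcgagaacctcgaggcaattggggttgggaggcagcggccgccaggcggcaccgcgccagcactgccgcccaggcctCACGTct
Gpi1: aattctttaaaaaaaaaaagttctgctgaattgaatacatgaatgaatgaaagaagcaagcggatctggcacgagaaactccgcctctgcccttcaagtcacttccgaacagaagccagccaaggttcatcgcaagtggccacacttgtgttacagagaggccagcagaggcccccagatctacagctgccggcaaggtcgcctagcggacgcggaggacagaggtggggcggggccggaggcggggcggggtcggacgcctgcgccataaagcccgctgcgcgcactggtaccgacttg
Eno1 held 2 matches, Pfkp 4 and Higd1a 3, and Gpi1 held none. Overlapping matches were counted separately. Only the first listed start of each gene was searched, here and in the shares below, and Eno1 had 3 listed starts. Of the 34 members with a promoter in the table, 25 (73.5%) held at least 1 match, against 11836 of 27025 genes (43.8%). At least 2 matches were present in 61.8% of the members and in 20.8% of all genes. The member windows averaged 62.7% G and C, against 53.6% over all genes, and the part of base composition in the counts was not tested. A match describes letters only. Slc2a3, Bnip3l, Ndrg1 and Bhlhe40 were not in the table.

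Levels are unique molecular identifiers (UMIs, each standing for a captured transcript) summed over the cells of a class in a library and scaled to a common total of 1000000 UMIs (CPM). The libraries held 59839154 to 81960504 UMIs, and 38498 of 41033 barcodes were kept, 4659 to 7454 per library. Any pair of libraries shared 3 to 17 barcodes. Classes were gated on marker genes that include no member, and their names stand for those gates: 14932 monocyte/macrophage-like cells, 4413 microglia-like, 1334 conventional dendritic-like, 1391 CD8 T-like, 1306 conventional CD4 T-like, 612 regulatory T-like and 1325 NK-like, with 11279 cells in no gate. The summed monocyte/macrophage markers stood at 12300 to 20080 CPM in their own class and at 542.5 to 1146 CPM in microglia, and the microglial markers at 6796 to 10270 CPM in microglia and 266 to 451 CPM in macrophages. Choroid plexus markers, which the sort should lack, reached 285 CPM in the macrophages of combination pool 2 and stood at 0.62 CPM in those of the untreated pool, and the CD8 T, conventional CD4 T, NK and microglial gates were likewise lowest in the untreated pool and highest in the combination pools. ICB pool 1 held 359 of the 388 cells of a macrophage cluster led by Retnla, Ccl24 and Ear2. Combination pool 1 had 734 CPM of summed neutrophil markers in its macrophage gate against 116 to 179 CPM in the other pools. The part of these differences in the results below was not tested.

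Monocyte/macrophage cells carried the highest level of 15 of the 38 members among the 7 classes, 12 of them glycolytic. For 7 of these, Slc2a1, Tpi1, Gapdh, Pgam1, Slc16a3, Bnip3 and Vegfa, they lay above the class with the next highest mean in each of the 7 libraries. Conventional dendritic cells were highest for 6 members, microglia and conventional CD4 T cells for 5 each, regulatory T cells for 4 and CD8 T cells for 3. NK cells were highest for none, and NK cells and microglia were each lowest for 13. In the sum of the 23 glycolysis members, macrophages led with 0.711% ± 0.088 of UMIs (SD, n = 7 libraries), regulatory T cells had 0.504% ± 0.048, conventional CD4 T cells 0.455% ± 0.069, CD8 T cells 0.384% ± 0.019, conventional dendritic cells 0.359% ± 0.031, microglia 0.268% ± 0.031 and NK cells 0.249% ± 0.037. Neighbours in this order overlapped over the libraries, except macrophages with regulatory T cells and conventional dendritic cells with microglia. The 15 hypoxia-induced members gave another order: conventional CD4 T cells had 0.144% ± 0.012, macrophages 0.131% ± 0.015, regulatory T cells 0.130% ± 0.011 and microglia 0.0718% ± 0.0081, and the first 3 overlapped.

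**Figure D1:**
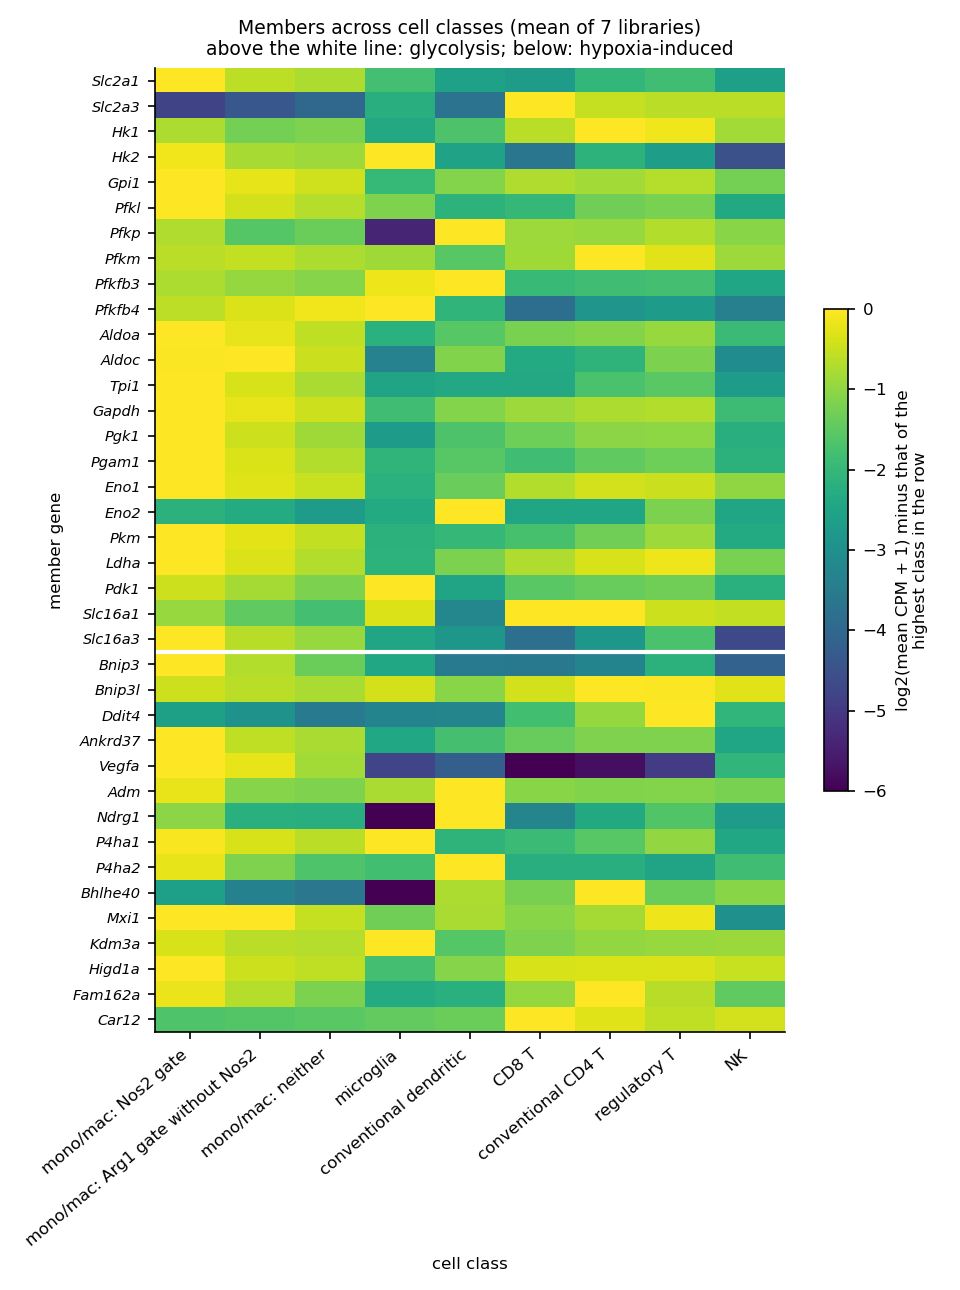
Heat map of the 38 members (vertical axis, glycolysis above the white line and hypoxia-induced genes below it) in 9 cell classes (horizontal axis, macrophages split in 3 gates). Colour gives log2(mean CPM + 1) over 7 libraries minus that of the highest class in the row, with differences below -6 drawn at the end of the scale; macrophages with Nos2 are the highest column for 12 of the 23 glycolysis genes, while Ndrg1, Pfkp and Bhlhe40 are near absent in microglia.

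The 2 glucose transporters had opposite patterns over the 7 compared classes. Slc2a1 stood at 223 ± 48.5 CPM in macrophages (lowest 140, median 226, highest 287), 89.9 ± 20.5 CPM in microglia and 47.9 ± 6.4 CPM in CD8 T cells, its lowest class. No microglial pool (71.4 to 131 CPM) reached the lowest macrophage pool. Slc2a3 stood at 57.0 ± 11.2 CPM in CD8 T cells and 39.2 ± 18.7 CPM in conventional CD4 T cells, whose ranges overlapped, and at 2.18 ± 1.29 CPM in macrophages. Among these 7 classes Slc2a3, whose product is known from neurons and activated lymphocytes, was thus lowest in the class where Slc2a1 was highest. Gated neutrophils, outside the 7 classes, had both (104 cells, 3 to 45 per pool). Their Slc2a3 stood at 249 ± 112 CPM and their Slc2a1 at 181 ± 65.5 CPM. Gated mast cells or basophils (190 cells) had Slc2a3 at 69.2 ± 35.1 CPM.

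Hexokinases and phosphofructokinases also divided by class, among the 7 compared. Hk1, the housekeeping hexokinase, was highest in conventional CD4 T cells (99.3 ± 15.4 CPM) and lowest in microglia (18.2 ± 2.10 CPM). Hk2, the inducible form, was highest in microglia (312 ± 54.2 CPM, against 201 ± 44.5 CPM in macrophages) and lowest in NK cells (12.6 ± 8.10 CPM). Microglia, low in most of the pathway, had more Hk2 than any other class by mean (267 to 424 CPM). Pfkp was highest in conventional dendritic cells at 340 ± 88.6 CPM and almost absent from microglia at 7.25 ± 2.91 CPM. Pfkfb3, which makes the fructose bisphosphate that activates phosphofructokinase, stood at 301 ± 58.2 CPM in dendritic cells and 271 ± 51.4 CPM in microglia, within the spread of each other, and at 53.1 ± 15.8 CPM in NK cells.

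Of the lower pathway, Gapdh was highest among the 7 classes in macrophages (1698 ± 146 CPM) and lowest in NK cells (548 ± 102 CPM). Ldha had its highest mean of the 7 classes in regulatory T cells (647 ± 106 CPM). Conventional CD4 T cells (555 ± 84.9 CPM) and macrophages (551 ± 47.9 CPM) followed, and microglia were lowest (164 ± 30.9 CPM). The first 3 of these overlapped. Gated mast cells or basophils, outside the 7 classes, had more Ldha by mean (891 ± 138 CPM). The lactate exporter Slc16a3 was highest in macrophages among the 7 classes (155 ± 26.6 CPM, against 69.0 ± 6.54 CPM in regulatory T cells and 8.06 ± 4.14 CPM in NK cells). Gated neutrophils, which are outside these 7 classes, had more (104 cells, 418 ± 187 CPM). Slc16a1 was near 17 CPM in both CD8 T cells (17.2 ± 4.74 CPM) and conventional CD4 T cells (17.1 ± 3.71 CPM), and 0.959 ± 0.697 CPM in dendritic cells. Pdk1, the kinase that holds pyruvate back from the mitochondrion, was highest in microglia (60.7 ± 10.6 CPM, against 33.1 ± 5.14 CPM in macrophages).

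Each hypoxia-induced member had its own distribution over the 7 classes. Vegfa, the vascular growth factor, stood at 275 ± 68.7 CPM in macrophages, 87.3 ± 17.3 CPM in NK cells and 3.77 ± 2.19 CPM in CD8 T cells. Bnip3, a receptor for mitophagy, was at 75.7 ± 17.1 CPM in macrophages, 28.0 ± 8.33 CPM in regulatory T cells and 6.37 ± 2.58 CPM in NK cells. Both were above the next class in every library. Ndrg1 stood at 145 ± 26.7 CPM in dendritic cells, at 46.5 ± 11.8 CPM in regulatory T cells and at 0.759 ± 0.768 CPM in microglia. Outside the 7 classes, gated mast cells or basophils had Ndrg1 at 184 ± 65.5 CPM. Bhlhe40, a transcriptional repressor that lymphocytes use for cytokine production, stood at 555 ± 66.9 CPM in conventional CD4 T cells and 3.84 ± 1.30 CPM in microglia. Ddit4, which restrains the growth kinase mTORC1, was highest in regulatory T cells (169 ± 42.2 CPM), with 86.6 ± 22.2 CPM in conventional CD4 T cells and 16.3 ± 5.19 CPM in microglia. The prolyl hydroxylase of collagen P4ha1 was highest in microglia (253 ± 45.7 CPM). Adm, encoding adrenomedullin, was barely seen: 1.33 ± 0.969 CPM in dendritic cells, 0.137 ± 0.164 CPM in macrophages and no UMI in NK cells. Of the members not yet placed, Pfkm, Bnip3l and Fam162a were highest in conventional CD4 T cells, Mxi1 and Higd1a in regulatory T cells, Eno2 and P4ha2 in dendritic cells, Pfkfb4 and Kdm3a in microglia and Car12 in CD8 T cells (2.22 ± 1.49 CPM).

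Macrophages and microglia of the same pools differed in most members. Among the 36 tested, 26 were higher and 4 lower in macrophages, against 38.4% and 38% of the 14752 genes tested (76.5% in all; a call is a Benjamini-Hochberg adjusted p under 0.05 in edgeR's quasi-likelihood test with the library as a block). The median member stood 2.04 higher on the log2 scale, against -0.018 for all genes. Log2 fold changes are given ± the standard error of the fit. Eno1 ran from 203 to 274 CPM in macrophages (median 226) and from 49.5 to 80.6 CPM in microglia (median 62.6), with no overlap (log2 fold change 2.32 ± 0.082, adjusted p = 4.01e-10, higher in 7 of 7 pools). Vegfa ran from 132 to 341 CPM against 8.76 to 18.4 CPM (4.81 ± 0.24).

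The differences covered the pathway from end to end. The transporter Slc2a1 was higher by 1.74 ± 0.14, Hk1 by 1.77, Gpi1 by 2.18, Pfkp by 4.86 ± 0.18, Pgk1 by 2.67, Gapdh by 2.04 ± 0.11, Pkm by 2.30, Ldha by 2.22 ± 0.11 and Slc16a3 by 2.36 ± 0.15. Among the hypoxia-induced members, Ndrg1 (6.75 ± 0.26), Bhlhe40 (4.28 ± 0.15), Ankrd37 (2.45), Bnip3 (2.17), Fam162a (2.03) and Higd1a (1.87 ± 0.071, adjusted p = 7.12e-10 in edgeR) were higher in macrophages. The remaining higher members were Aldoc, Tpi1, Aldoa, Pgam1, P4ha2, Mxi1 and Pfkl, by 1.19 to 3.88, together with Ddit4 (0.53) and Bnip3l (0.19). Lower in macrophages were Slc2a3 (-1.98 ± 0.15), Slc16a1 (-0.73), Pdk1 (-0.44) and Pfkfb3 (-0.37 ± 0.087). Hk2 (-0.20), P4ha1, Kdm3a, Pfkfb4, Pfkm and Adm did not pass, and Eno2 and Car12 were too low to be tested. The 4 lower members were thus 2 transporters, the kinase that restrains pyruvate entry to mitochondria and the activator of phosphofructokinase.

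**Figure D2:**
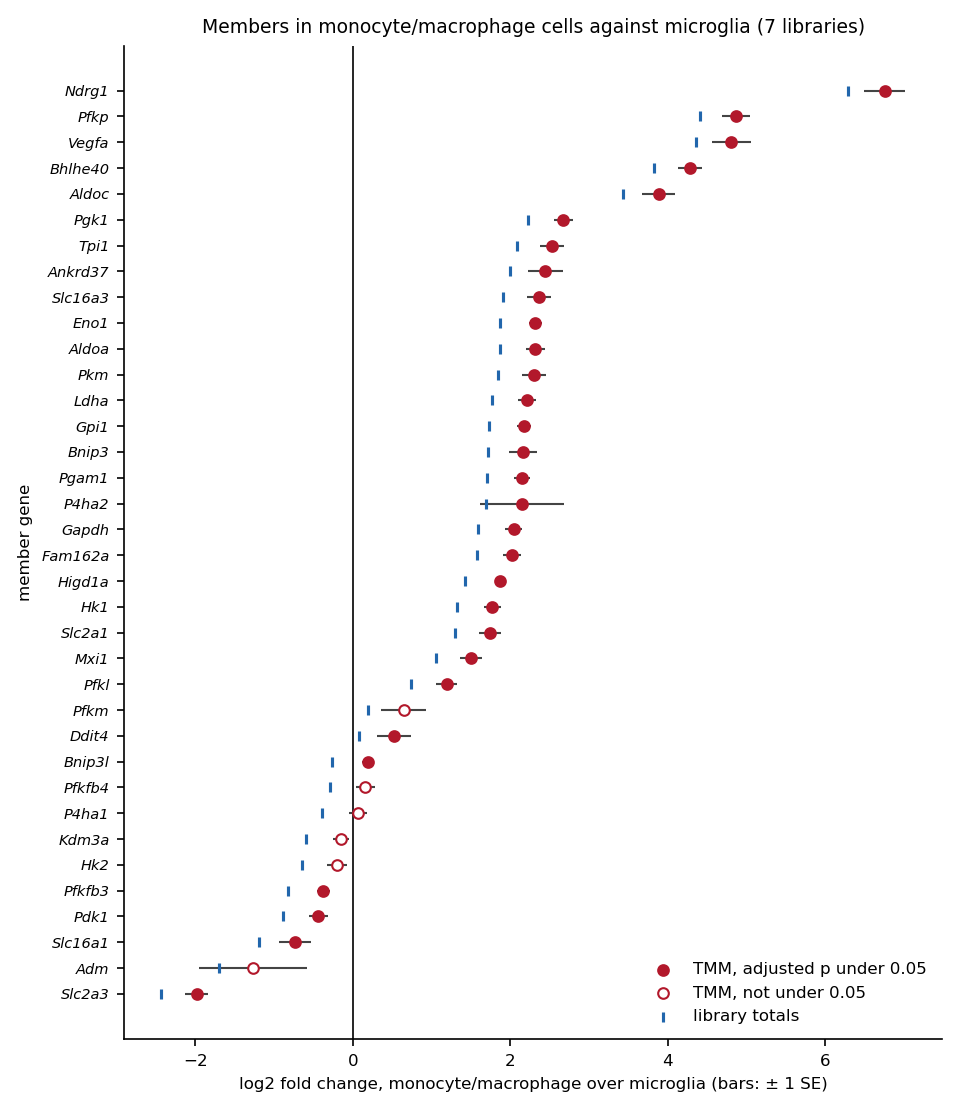
Log2 fold change of each member in monocyte/macrophage cells over microglia (horizontal axis, bars ± 1 SE, 7 libraries, filled points with adjusted p under 0.05); blue ticks give the value when scaled by library totals alone. Most points lie to the right of 0, from Ndrg1 at 6.75 down to Slc2a3 at -1.98, and the ticks lie 0.452 to the left of the points, as for the median of all genes.

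Median depth was 11683 UMIs per macrophage and 8244 per microglial cell. With library totals in place of TMM factors the median of all genes moved by -0.452, 24 members were higher and 9 lower, and 3622 genes were higher and 8148 lower. Bnip3l then turned to -0.26 (adjusted p = 0.00545 in edgeR), as its levels of 89.6 ± 9.00 CPM in macrophages and 107 ± 6.29 CPM in microglia show, and Hk2 (-0.65), Kdm3a (-0.60), P4ha1 (-0.39) and Adm (-1.69) became lower. Ddit4 lost its call with library totals (0.08, adjusted p = 0.749), with clusters as classes (0.124), with doublets kept (0.0528) and without the untreated pool (0.0861), PT2385 pool 1 (0.101), PT2385 pool 2 (0.0732) or ICB pool 2 (0.0742). Bnip3l also lost its call with DESeq2 (0.0629), RLE size factors (0.0539) and clusters as classes (0.0709), without both combination pools (0.134) and without any 1 pool other than ICB pool 1 (adjusted p of 0.062 to 0.0996).

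Related pathway lists, chosen as the members were, moved with them in part. The 25 nuclear genes of oxidative phosphorylation were all higher in macrophages, Cox7a2 by 1.92 ± 0.080, as were 6 of 7 pentose phosphate genes (Tkt 1.80 ± 0.086). Of 18 further genes of glycogen, pyruvate and glycolysis, 11 were higher and 2 lower, Ldhb, the heart-type lactate dehydrogenase, by -2.42 ± 0.17. Of 10 HIF subunits and oxygen sensors, 6 were higher and 2 lower, led by Egln3 (3.69) and Hif1a itself (2.15). Of 18 other hypoxia-induced genes, 14 were higher and 2 lower, with Cxcr4 at 5.60 ± 0.23. Of 15 immediate early and stress genes, a group known to respond to cell isolation, 5 were higher and 7 lower, led by Egr1 (-4.85) and Jun (-2.48), and their part in the member differences was not tested.

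Within the macrophage gate, cells with a Nos2 UMI (3526 cells) carried more of the module than cells with Arg1 but no Nos2 (3594 cells). Cells with both were placed in the Nos2 gate, where Arg1 stood at 759.2 CPM, against 786.7 CPM in the Arg1 gate. The gates thus differed in detected Nos2 at similar Arg1, and the names Nos2 cells and Arg1 cells stand for them. They differed in other markers too. Mrc1 stood at 171 CPM in the Arg1 gate and 34.6 CPM in the Nos2 gate, and Cx3cr1 at 243 and 101 CPM. Ly6c2 stood at 798 and 1174 CPM and Plac8 at 949 and 1634 CPM, in the same order. The part of these differences in the contrast was not tested. Of 35 members tested, 29 were lower in the Arg1 cells and none higher, against 10.9% and 7.9% of 12110 genes (18.8% in all, edgeR with the library as a block). The median member was at -0.39, against 0.013 for all genes. Slc2a1 ran from 272 to 373 CPM in the Nos2 cells (median 300.1) and from 138 to 252 CPM in the Arg1 cells (median 218), with no overlap. Slc16a3 ran from 209 to 264 CPM (median 228) and from 119 to 177 CPM (median 143), again apart.

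On the log2 scale, Arg1 over Nos2, the transporter Slc2a1 was lower by -0.63 ± 0.064, Hk2 by -0.69 ± 0.074, Pfkp by -0.90 ± 0.061, Slc16a3 by -0.70 ± 0.053 and Hk1 by -0.55. Of the lower pathway, Pgk1 was lower by -0.47, Tpi1 by -0.39, Eno1 by -0.34, Ldha by -0.33, Pkm by -0.27 and Gapdh by -0.22. Pfkl (-0.44), Pdk1 (-0.40), Pgam1 (-0.37), Aldoa (-0.25), Pfkfb3 (-0.25) and Gpi1 (-0.25) were also lower. Among the hypoxia-induced members, P4ha2 (-1.38 ± 0.24), Ndrg1 (-1.19 ± 0.080), Bhlhe40 (-0.74), Ankrd37 (-0.71), Bnip3 (-0.70 ± 0.079), Fam162a (-0.54), Higd1a (-0.50), Ddit4 (-0.46), P4ha1 (-0.35), Vegfa (-0.29) and Kdm3a (-0.29) were lower. Ndrg1 stood at 70.4 ± 26.1 CPM in the Nos2 cells and 30.8 ± 7.16 CPM in the Arg1 cells, and Bnip3 at 126 ± 23.6 and 78.4 ± 6.55 CPM. Vegfa, at 368 ± 53.8 and 313 ± 91.7 CPM, overlapped between the gates and was lower in 6 of 7 pools. Slc16a1 (-0.60, adjusted p = 0.0161) lost its call without PT2385 pool 2 (0.109) or without both combination pools (0.091). Bnip3l, Mxi1, Aldoc, Pfkm, Slc2a3 and Pfkfb4 did not pass.

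**Figure D3:**
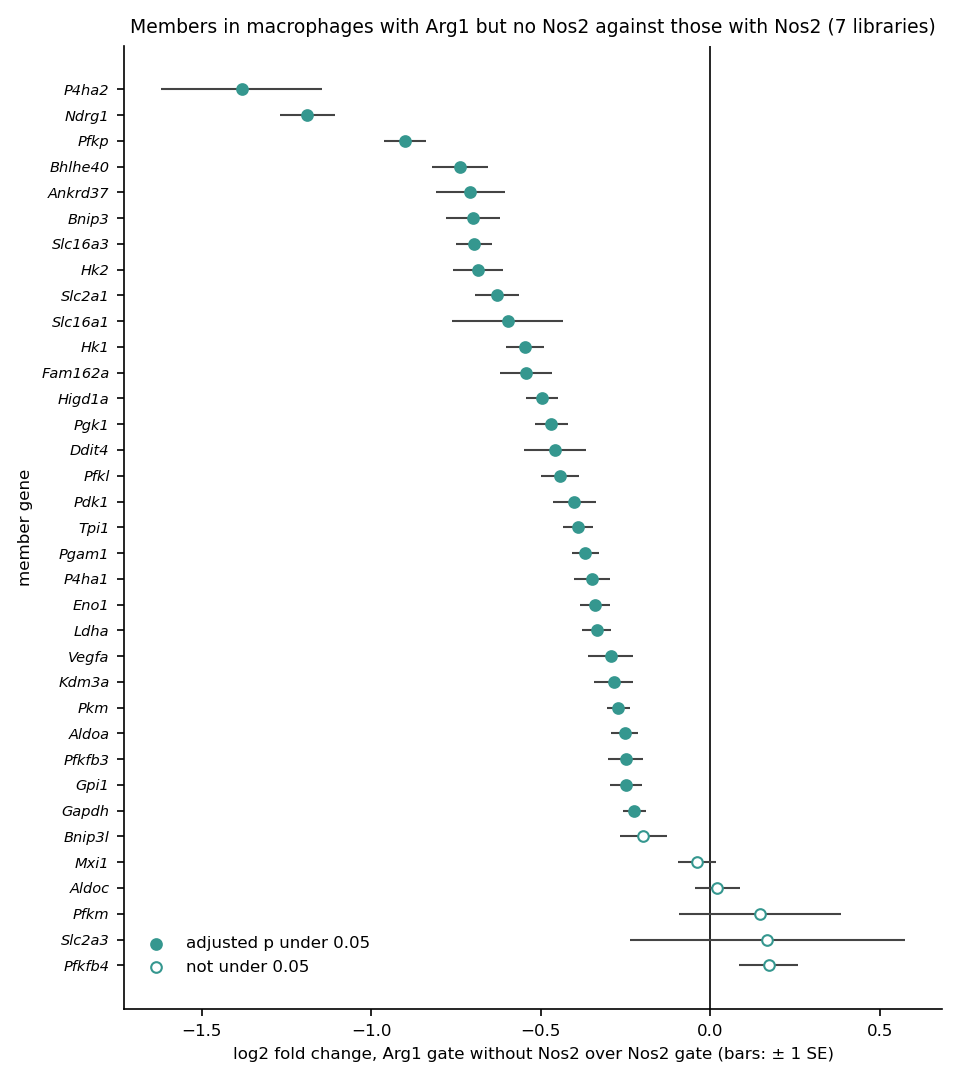
Log2 fold change of each member in macrophages with Arg1 but no Nos2 over those with Nos2 (horizontal axis, bars ± 1 SE, 7 libraries, filled points with adjusted p under 0.05). The filled points all lie to the left of 0, from P4ha2 at -1.38 to Gapdh at -0.22.

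The neighbouring pathways did not all follow. None of 7 pentose phosphate genes and 2 of 25 oxidative phosphorylation genes were lower in the Arg1 cells (Cox7a2 by -0.15 ± 0.036). Of 17 other hypoxia-induced genes 9 were lower, among them Ero1l (-1.14) and Hilpda (-0.90), and Cxcr4 was higher (0.51). Hif1a (-0.62), Egln1 (-0.57) and Egln3 (-0.85) were the 3 of 8 HIF subunits and sensors that were lower, and Gys1 (-0.94) and Pgm1 (-0.63) of glycogen metabolism were among 5 of 18 further glycolysis genes. Of 15 stress genes 2 were higher and 2 lower. Median depth per cell was 13311 UMIs in the Nos2 gate and 12899.5 in the Arg1 gate. The gates use Nos2 and Arg1 themselves, which are no members, and 29 members were also lower when a gate needed at least 2 UMIs.

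The glycolysis sum ordered the macrophage gates in the same way in every library. It took 0.902% ± 0.046 of UMIs in the Nos2 gate, 0.730% ± 0.037 in the Arg1 gate and 0.599% ± 0.045 in cells with neither (7812 cells). The lowest Nos2 value (0.845%) exceeded the highest Arg1 value (0.767%). In a clustering built without the members, the cluster led by Nos2, Upp1 and Saa3 (1937 cells) had the highest sum among macrophage clusters, 1.00% of UMIs, and was highest for 14 members. A cluster led by Cd72 and Ccnd1 had 0.489% and was lowest for 11. The lowest sum, 0.471%, was in a cluster of 614 cells led by 4930595D18Rik and Gm26827, which also had the highest hypoxia-induced sum (0.212%, against 0.177% in the Nos2 cluster). That cluster was highest for 13 members and lowest for 10, and its cells held a median of 2932 UMIs.

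**Figure D4:**
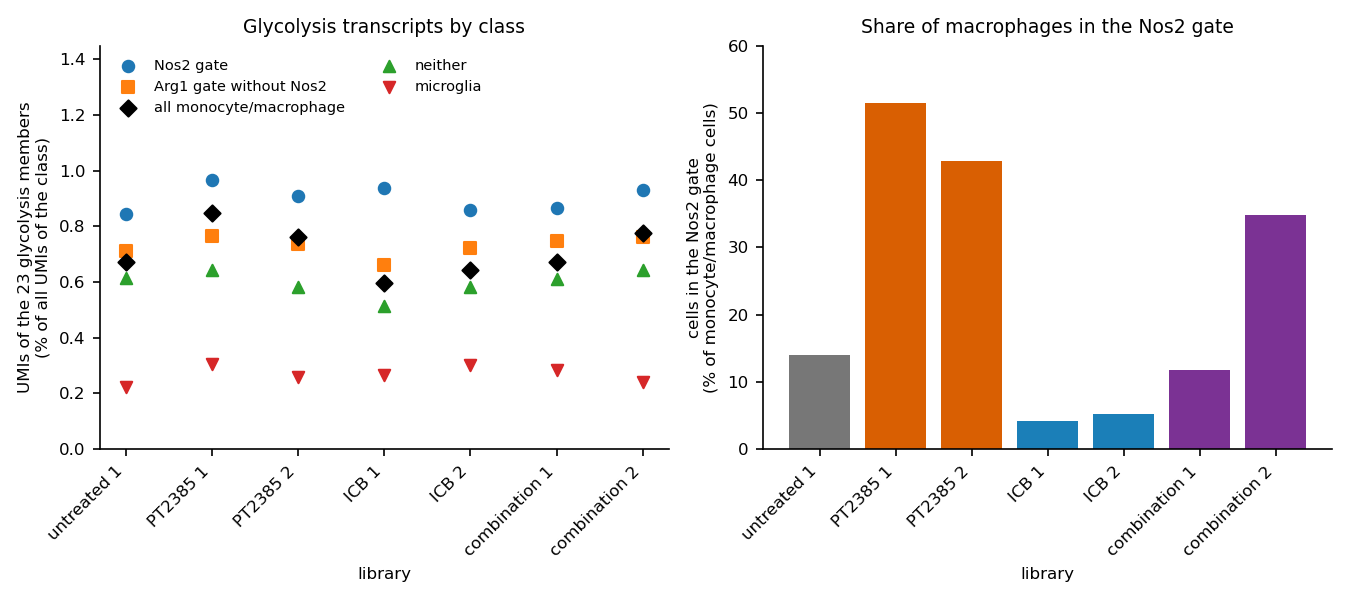
Left, UMIs of the 23 glycolysis members as a percentage of all UMIs of a class (vertical axis) in each library (horizontal axis); right, the Nos2 gate as a percentage of monocyte/macrophage cells in each library. Nos2 cells lie above Arg1 cells in each library, and the bars reach 51.47% and 42.88% in the PT2385 pools against 13.98% in the untreated pool.

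Cycling T cells (with UMIs of both Mki67 and Top2a, 664 cells) had more of 19 members than T cells with neither (2756 cells), 13 of them glycolytic. The 1150 T cells with 1 of these 2 markers were left out. Of 33 members tested, 19 were higher and 1 lower, against 23.5% and 21.7% of 10764 genes (45.2% in all, edgeR with the library as a block). The median was 0.38, against -0.023 for all genes. Ldha ran from 634 to 1001 CPM in cycling cells (median 716) and from 321 to 475 CPM in others (median 427), without overlap (0.84 ± 0.082). Tpi1 (0.94 ± 0.088), Pgk1 (0.87), Slc16a3 (0.83 ± 0.12), Pgam1 (0.81), Hk2 (0.75 ± 0.11), Pkm (0.72), Gapdh (0.71), Eno1 (0.53), Pfkp (0.38), Pfkl (0.37) and Aldoa (0.30) were higher. Hk2 stood at 58.3 ± 19.0 and 35.1 ± 8.90 CPM, with overlap. Of the hypoxia-induced members Ndrg1 (0.70), Higd1a (0.50), Fam162a (0.49) and Ddit4 (0.44) were higher and Bnip3l, the second mitophagy receptor, was lower (-0.33 ± 0.076). Ankrd37 (0.56), Bnip3 (0.45) and Slc16a1 (0.38) also passed but each lost its call in several settings. Bnip3 lost it with DESeq2 (adjusted p = 0.154) and without ICB pool 1 (0.0568). Ankrd37 lost it with DESeq2 (0.121) and without both combination pools (0.185). Ankrd37 also lost it without any of PT2385 pool 1 (0.111), ICB pool 1 (0.0973), ICB pool 2 (0.0502), combination pool 1 (0.117) or combination pool 2 (0.0565). Slc16a1 lost it with DESeq2 (0.249), RLE size factors (0.0536), library totals (0.0581), no filter on low counts (0.053) and without both combination pools (0.101). Slc16a1 also lost it without PT2385 pool 1 (0.106), PT2385 pool 2 (0.06), ICB pool 1 (0.245) or combination pool 1 (0.0989).

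In the lists beside them, 23 of 25 oxidative phosphorylation genes (Atp5b 0.64 ± 0.058) and 4 of 7 pentose phosphate genes (Tkt 0.85 ± 0.068) were higher in cycling cells, and 11 of 15 stress genes were lower (Btg2 by -0.83 ± 0.053). Other hypoxia-induced genes split, 5 higher and 2 lower of 14, with the iron importer Tfrc at 0.93 ± 0.11 and Cxcr4 at -1.16 ± 0.14. Epas1 (-1.31 ± 0.27) and Hif1an (-0.53 ± 0.14) were lower among 9 HIF genes. Of 16 further glycolysis genes 2 were higher, led by Eno3 (1.09 ± 0.18), and 1 was lower. Median depth was 18380 UMIs per cycling cell and 6695.5 per other T cell.

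CD8 T cells had less of several members than conventional CD4 T cells. Of 34 tested, 16 were lower and 1 higher, against 15.1% and 13.9% of 10676 genes (29% in all, edgeR with the library as a block), and the median was -0.28 against 0.011. Bhlhe40 ran from 177 to 343 CPM in CD8 T cells (median 239) and from 494 to 676 CPM in CD4 T cells (median 537), without overlap (-1.18 ± 0.087). Hk2 ran from 14.6 to 53.5 CPM (median 19.4) and from 44.4 to 102 CPM (median 60.2), with ICB pool 2 alone bringing the CD8 range up to the CD4 range (-1.52 ± 0.19). Along with these, Fam162a (-0.91), Pfkl (-0.65), Slc2a1 (-0.58) and Hk1 (-0.55) kept their calls under all alternatives. The other 11 did not. When classes were taken from clusters, Ldha (-0.27 by gates) turned to 0.12, Pkm (-0.37) to 0.12, Ddit4 (-0.82) to 0.016, Slc16a3 (-0.91) to 0.24 and Pgam1 (-0.29) to 0.14, none passing. In that setting Ndrg1 (-1.0 by gates), Tpi1 (-0.59), P4ha1 (-0.28), Pfkm (-0.97) and Slc2a3 (0.66 ± 0.19, the one higher member) lost their calls, and Bnip3l (-0.34) lost its call among cells without Mki67 and Top2a (adjusted p = 0.123). Slc2a3 also lost it without the untreated pool (0.0625) or ICB pool 2 (0.0648), and Ldha without any of the untreated, PT2385 and ICB pools (0.0521 to 0.0658). Pgam1 lost it without any of the same 5 pools (0.0784 to 0.123), P4ha1 without the untreated pool, PT2385 pool 2, ICB pool 1, ICB pool 2 or combination pool 2 (0.0521 to 0.0964), and Pfkm without any pool other than combination pool 2 (0.0546 to 0.119).

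Hif1a was lower in CD8 T cells by -1.67 ± 0.065 and Egln3 by -1.79 ± 0.22, among 4 of 9 HIF genes that were lower and none higher. Of 15 other hypoxia-induced genes 6 were lower (Rora by -1.62 ± 0.19), and of 16 further glycolysis genes 3 (Ldhb by -1.81 ± 0.14). Oxidative phosphorylation went the other way, with 12 of 25 genes higher (Cox8a 0.43 ± 0.060), as did 2 of 7 pentose phosphate genes. Stress genes were lower for 10 of 15 (Junb by -1.01 ± 0.078). Summed monocyte/macrophage markers stood at 764.5 to 2557 CPM in the CD8 gate and 597.9 to 1402 CPM in the CD4 gate. Among these, Ly6c2, which the gates treat as shared with T and NK cells, stood at 888.6 CPM in CD8 and 111.4 CPM in CD4 T cells. Plac8, also treated as shared, stood at 642.6 and 612.3 CPM, and Lyz2 at 142.5 and 128.9 CPM.

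PT2385 was compared by setting the 4 pools that received it against the 3 that did not, allowing for ICB. Across the 7 classes, 1 of 229 member-class pairs passed, Bhlhe40 in macrophages, which fell; over all genes 0.134% of gene-class pairs passed (edgeR). At an unadjusted p under 0.05, 17 pairs were higher and 23 lower, against 4.43% and 5.11% over all genes. DESeq2 called 6 member pairs and 1.51% of all gene-class pairs. In macrophages 0.369% of 14361 genes passed (edgeR). Bhlhe40 there stood at 75.8 CPM untreated, 45.7 and 40.7 CPM with PT2385, 76.7 and 61.2 CPM with ICB and 36.2 and 39.1 CPM with the combination. The 4 pools with PT2385 (40.4 ± 3.97 CPM) all lay below the 3 without (71.2 ± 8.71 CPM). The log2 fold change was -0.82 ± 0.076 (adjusted p = 0.0245 in edgeR). The call was lost without the untreated pool (-0.82, adjusted p = 0.34), PT2385 pool 1 (-0.85, 0.101), PT2385 pool 2 (-0.80, 0.116) or combination pool 2 (-0.85, 0.138), and with 1 mean per group (0.0544), while the size stayed between -0.87 and -0.79. Without ICB pool 1 Ddit4 passed as well, and without ICB pool 2 Ddit4 and Aldoa did, giving 2 and 3 members in fits that called 2.42% and 6.66% of all genes.

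The same gene was lower in each macrophage gate. In Nos2 cells Bhlhe40 stood at 116 CPM untreated, 54.7 and 53.2 CPM with PT2385, 180 and 100.1 CPM with ICB and 77.3 and 47.0 CPM with the combination, and fell by 1.14 ± 0.19 on the log2 scale (adjusted p = 0.0272 in edgeR, where 1.07% of genes passed). All pools with PT2385 lay below all pools without. In cells with neither marker it stood at 64.2 CPM untreated, 35.1 and 30.5 with PT2385, 64.5 and 56.6 with ICB and 26.9 and 30.5 with the combination, again without overlap (-1.05 ± 0.078, adjusted p = 0.0122, where 1.08% of genes passed). In Arg1 cells it stood at 79.3 CPM untreated, 34.8 and 30.2 with PT2385, 80.1 and 62.7 with ICB and 39.8 and 42.4 with the combination, also without overlap, and did not pass (-1.01 ± 0.14, adjusted p = 0.0554). The differences within gates were thus no smaller than over all macrophages. The Nos2 gate held 64 and 140 cells in the ICB pools, against 1204 and 1109 in the PT2385 pools. Its summed monocyte/macrophage markers stood at 10790 CPM in ICB pool 1, the pool with 180 CPM of Bhlhe40, against 15820 to 19190 CPM in the other pools. The part of these differences was not tested.

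Ddit4 fell in Nos2 cells, from 44.4 CPM untreated and 34.5 and 28.5 CPM with ICB to 25.5 and 23.2 CPM with PT2385 and 18.6 and 15.0 CPM with the combination (-0.90 ± 0.12, adjusted p = 0.0117 in edgeR). In Arg1 cells its levels were 39.8 CPM untreated, 24.6 and 24.9 CPM with ICB, 14.4 and 15.4 CPM with PT2385 and 14.9 and 12.4 CPM with the combination (-1.14 ± 0.16, adjusted p = 0.0554). The pools with PT2385 lay below those without in both gates. In Arg1 cells no member passed, 0.102% of genes passed in edgeR, and 2 members were higher and 4 lower at an unadjusted p under 0.05, where 6.23% and 8.52% of all genes were. DESeq2 called Bhlhe40 and Ddit4 there, and 3% of all genes. In edgeR both also passed there with 1 mean per group, with library totals (adjusted p of 0.0393 and 0.0385) and with no filter on low counts (0.00183 and 0.00223). In cells with neither marker Ddit4 was at -0.86 (adjusted p = 0.11), and over all macrophages at -0.67 ± 0.10 (0.0527), with overlap between the groups (32.2 CPM untreated, 19.7 and 16.5 with PT2385, 19.9 and 18.7 with ICB, 13.0 and 12.9 with the combination).
Calls in the gates rested on single pools too. In Nos2 cells Bhlhe40 lost its call without the untreated pool (adjusted p = 0.259), PT2385 pool 1 (0.0933), PT2385 pool 2 (0.083) or combination pool 2 (0.119) and with 1 mean per group (0.0556). Ddit4 lost it without the same 4 pools (0.232, 0.0546, 0.0559 and 0.0679). In cells with neither marker Bhlhe40 lost it without the untreated pool (0.16), PT2385 pool 1 (0.0637), PT2385 pool 2 (0.0866) or combination pool 1 (0.0507). Other calls appeared when an ICB pool was left out: Bhlhe40 and Ddit4 in Arg1 cells without either ICB pool, Pfkp in Nos2 cells without ICB pool 2 and Ddit4 in cells with neither marker without ICB pool 1. These fits called 2.96 to 4.07% of all genes.

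**Figure D5:**
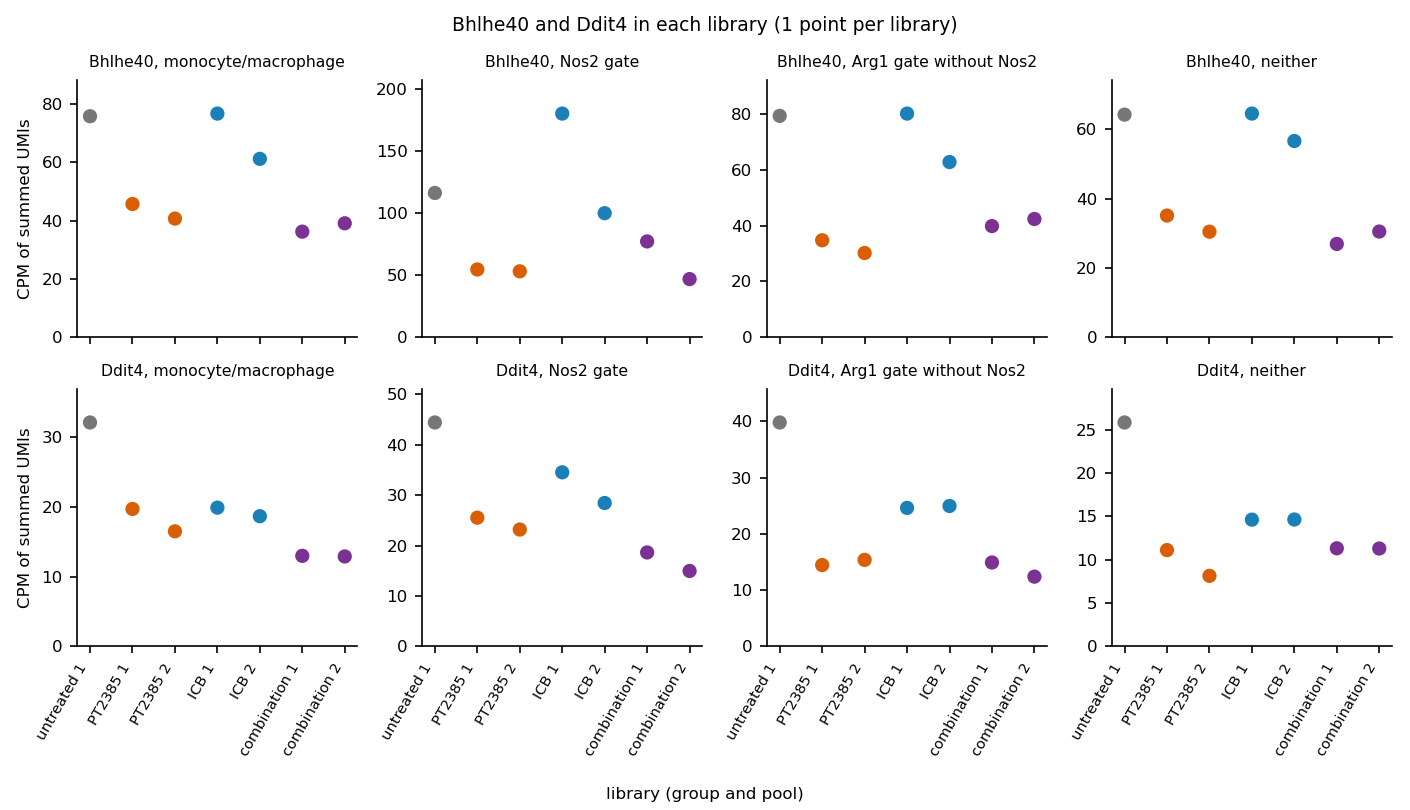
Level of Bhlhe40 and Ddit4 (vertical axes, CPM of summed UMIs, from 0) in each library (horizontal axis, 1 point per library) in all monocyte/macrophage cells and in the 3 macrophage gates. The 4 libraries with PT2385 lie below the 3 without in each panel of Bhlhe40, while Ddit4 overlaps in all macrophages, with PT2385 pool 1 at 19.7 CPM above ICB pool 2 at 18.7 CPM.

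The other members of the macrophage gate did not pass. Over all 36 members tested there the median was 0.20, against 0.0037 for all genes, with 28 of 36 above 0. At an unadjusted p under 0.05 in edgeR, 14 were higher and 4 lower, where 9.89% of all genes were higher and 11% lower. Within the gates the median was smaller: -0.010 in Nos2 cells (16 of 34 above 0), 0.020 in Arg1 cells (20 of 35) and 0.047 in cells with neither (21 of 35). The Nos2 gate held 51.47% and 42.88% of macrophages in the PT2385 pools, 13.98% in the untreated pool, 4.188% and 5.245% with ICB and 11.74% and 34.82% with the combination. Choroid plexus markers in macrophages stood at 2.51 to 285 CPM in the pools with PT2385 and 0.62 to 104 CPM in those without, and their part was not tested.

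Slc2a1 in macrophages stood at 260 CPM untreated, 287 and 244 CPM with PT2385, 140 and 215 CPM with ICB and 189 and 226 CPM with the combination, and the groups overlapped. Hk2 stood at 202, then 265 and 231, 130 and 172, and 183 and 226 CPM in the same order, and Vegfa at 341, then 292 and 274, 132 and 269, and 330.3 and 285 CPM. ICB pool 1 was the lowest pool for all 3 genes. Bnip3 stood at 66.5 CPM untreated, 101 and 89.0 CPM with PT2385, 58.5 and 59.0 CPM with ICB and 66.4 and 89.1 CPM with the combination (0.47 ± 0.11, adjusted p = 0.092 in edgeR). Slc2a3, at 1.76 CPM untreated, 1.05 and 0.912 with PT2385, 4.19 and 3.73 with ICB and 1.44 and 2.18 with the combination, was at -0.99 ± 0.20 (adjusted p = 0.0700). Slc16a3 ranged from 106 CPM (ICB pool 1) to 187 CPM (PT2385 pool 1), Pfkfb3 from 121 to 203 CPM in the same 2 pools and Ldha from 496 to 609 CPM, all overlapping. Adm was at 0 to 0.499 CPM.

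The related lists in macrophages gave 1 call: Cited2, a HIF-induced inhibitor of HIF transcription, rose by 0.63 ± 0.088 (adjusted p = 0.0445 in edgeR), 1 of 18 other hypoxia-induced genes. None passed among 8 HIF genes, 18 further glycolysis genes, 7 pentose phosphate genes, 25 oxidative phosphorylation genes or 15 stress genes. At an unadjusted p under 0.05, 6 of the glycolysis genes and 6 of the oxidative phosphorylation genes were higher and none lower, 1 pentose phosphate gene was higher and 2 lower, and 1 HIF gene and 1 stress gene were lower, where 9.89% of all genes were higher and 11% lower. Epas1, which encodes the protein PT2385 binds, was scarce at 0.853 ± 0.114 CPM with PT2385 and 1.37 ± 0.123 CPM without (-0.69 ± 0.22, adjusted p = 0.153).

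Outside macrophages no member passed with PT2385. The closest in conventional CD4 T cells was Hk2, at 85.1 CPM untreated, 52.9 and 60.2 CPM with PT2385, 102 and 91.5 CPM with ICB and 44.4 and 55.6 CPM with the combination. The 4 pools with PT2385 lay below the 3 without (-0.82 ± 0.14, adjusted p = 0.107 in edgeR; DESeq2 called it). Ldha in regulatory T cells stood at 683 CPM untreated, 556 and 580 with PT2385, 808 and 769 with ICB and 582 and 552 with the combination, also without overlap (-0.40 ± 0.10, adjusted p = 0.358). Vegfa in NK cells stood at 104, 73.2 and 86.0, 100.5 and 107, and 60.2 and 81.0 CPM (-0.47 ± 0.14, adjusted p = 0.201). In NK cells 3 of 15 stress genes fell, among them Jund (-0.59 ± 0.097), and their part was not tested.
The remaining smallest p-values in each class were for Pfkl (-0.47) and Slc2a3 (0.57) in conventional CD4 T cells, Tpi1 (-0.41) and Hk2 (-0.57) in regulatory T cells, Bhlhe40 (-0.44) and Slc2a1 (-0.46) in NK cells, Slc2a3 (-0.68), Pfkfb4 (0.37) and Vegfa (-0.47) in microglia, Aldoc (-0.93), Ddit4 (-0.43) and P4ha2 (0.88) in dendritic cells and Bhlhe40 (-0.34), Slc2a1 (-0.22) and Aldoc (-0.58) in CD8 T cells. None had an adjusted p below 0.201.

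ICB was compared by setting 4 pools against 3 in the same fit. None of 229 member-class pairs passed in edgeR, 27 had an unadjusted p under 0.05 (13 higher, 14 lower), and 0.0401% of all gene-class pairs passed in edgeR. Over all genes 4.1% were higher and 3.71% lower at that unadjusted p. DESeq2 called 1 member pair (Ddit4 in macrophages) and 0.378% of all gene-class pairs. The smallest p-values lay in microglia. P4ha1 stood there at 210 CPM untreated, 223 and 202 CPM with PT2385, 266 and 258 CPM with ICB and 333 and 277 CPM with the combination. The 4 pools with ICB lay above the 3 without (0.39 ± 0.11, adjusted p = 0.162). Ddit4 (0.68 ± 0.20, 0.182) and Slc16a3 (0.46 ± 0.14, 0.202) followed. In macrophages Ddit4 (-0.61), Slc2a3 (0.99) and Hk1 (-0.32) came closest, at adjusted p of 0.447 to 0.53. Without ICB pool 2, 1 member passed, Pfkp in microglia, where that fit called 4.48% of genes.

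Adding PT2385 to ICB gave no call either. Of 234 pairs, 47 had an unadjusted p under 0.05 in edgeR, 33 of them lower with the combination, and 0.0215% of gene-class pairs passed in edgeR. Over all genes 9.13% had such an unadjusted p, 5.08% lower. DESeq2 called 2 member pairs (Bhlhe40 in macrophages and Tpi1 in conventional CD4 T cells) and 0.398% of all gene-class pairs. In conventional CD4 T cells 11 of 34 members were lower and none higher at an unadjusted p under 0.05, where 5.51% of all genes were lower and 4.4% higher, led by Hk2 (-1.0 ± 0.18, adjusted p = 0.131), Tpi1 (-0.81, 0.168) and Pgk1 (-0.67, 0.268). Bhlhe40 in macrophages was at -0.81 ± 0.11 (adjusted p = 0.352). This comparison depended on the ICB pools: without ICB pool 2, 11 of 37 members passed in macrophages, in a fit that called 10.2% of all genes, and without ICB pool 1, 2 of 33 (Gapdh and Pkm) passed in microglia, in a fit that called 1.85%.

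Adding ICB to PT2385 gave no call among 234 pairs, and 0.651% of gene-class pairs passed (edgeR). At an unadjusted p under 0.05, 15 member pairs were higher and 24 lower, against 4.03% and 4.1% over all genes. DESeq2 called no member pair and 0.635% of all gene-class pairs. Microglia held most of the edgeR calls, 485 of 12575 genes (3.86%). Pfkp in microglia stood at 7.65 CPM untreated, 9.16 and 11.7 CPM with PT2385, 4.71 and 8.93 CPM with ICB and 4.32 and 4.26 CPM with the combination (-1.35 ± 0.33, adjusted p = 0.0537 in edgeR). Both combination pools lay below both PT2385 pools. Pdk1 (0.50 ± 0.13, 0.0634) and P4ha1 (0.46 ± 0.13, 0.0777) were next. Choroid plexus markers in microglia stood at 2.39 and 3.40 CPM with PT2385 and 259 and 296 CPM with the combination, and the monocyte/macrophage markers at 947 and 1069 CPM and 542.5 and 559.5 CPM. Their part was not tested. Without ICB pool 1, 5 of 33 microglial members passed, and without ICB pool 2, 4 of 33, in fits that called 8.6% and 8.47% of all genes. In conventional CD4 T cells 15 members were lower at an unadjusted p under 0.05, as were 5.16% of all genes, and none passed (Tpi1 -0.74, adjusted p = 0.169).

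Whether PT2385 acted differently with and without ICB was tested as an interaction, which rests on the lone untreated pool. None of 234 pairs passed in edgeR, 37 had an unadjusted p under 0.05 (12 higher, 25 lower), and 0.00379% of gene-class pairs passed in edgeR. Over all genes 2.84% were higher and 3.52% lower at that unadjusted p. DESeq2 called 2 member pairs (Gapdh and Pkm in microglia) and 0.134% of all gene-class pairs. The smallest p-values were for Pkm (-1.30 ± 0.22, adjusted p = 0.117), Gapdh (-1.07 ± 0.22, 0.141) and Slc16a1 (1.43 ± 0.31, 0.147) in microglia. Gapdh there stood at 414 CPM untreated, 678 and 598 CPM with PT2385, 595 and 718 CPM with ICB and 486 and 498 CPM with the combination, so that each treatment alone lay above the untreated pool and the combination between them. Without ICB pool 1 these 2 genes, Gapdh and Pkm, passed, in a fit that called 3.39% of genes.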

How the data were processed

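Libraries were made with a 10x 3′ v3.1 kit, per the labels' protocols. The submitters' processing notes name Cell Ranger 2.2.0, Seurat 5 and GRCm39, while the file headers name another Cell Ranger version. The deposited matrices hold raw UMI counts per gene and barcode, per the file headers and the whole-number values. A cell needed 300 detected genes or more and a mitochondrial share of UMIs no higher than 10%, and the highest Scrublet scores (0.8% per 1000 barcodes, 1918 cells) were removed; Scrublet's own threshold marked 11. Classes needed a minimum number of markers with a UMI (7 of 9 for microglia, 5 of 14 for monocyte/macrophage cells), set on marker counts alone. Counts were summed per library and class, with at least 30 cells in each, and tested with edgeR 4.0.16 (TMM, filterByExpr, quasi-likelihood, Benjamini-Hochberg adjustment over all genes tested); DESeq2 1.42.0, other scalings, filters, classes and each pool left out were alternatives. Scripts were tested on simulated data: for PT2385, 64 to 71% of 2-fold changes were recovered, and for the interaction 9 to 33%. Recovery was 57 to 76% for ICB, 39 to 72% for combination against ICB and 27 to 69% for combination against PT2385. The simulated counts used the trended dispersion of each class, and pools differed only in size and in the set changes. The differences between pools described above were thus not simulated. Members named are those that passed or, where none did, the 3 with the smallest p, with at most 3 per list. The members and lists were chosen with earlier results of these data known. Clusters were made with scanpy 1.11.5 without the members.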

Additional observations from a re-analysis of the deposited data

Results flagged for a closer look

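Cells gated as choroid plexus, which no comparison used and which the sort should lack, carried a signal of Car12, a carbonic anhydrase induced by hypoxia: 140.91 CPM over 1807 UMIs, or 122 ± 39.4 CPM (SD over the 6 libraries that held such cells). The highest of the 7 compared classes was CD8 T cells at 2.17 CPM. The untreated pool held none of the 1266 cells, the PT2385 pools 11 and 4, the ICB pools 76 and 179 and the combination pools 336 and 660. The same cells had more Pfkm (43.7 CPM, against 5.43 in conventional CD4 T cells), Aldoa (1354 against 866 CPM in macrophages) and Gapdh (2101 against 1693 CPM in macrophages). Other glycolysis members ranged widely there. Pkm stood at 851 CPM, Pgk1 at 637, Pgam1 at 544, Eno1 at 439, Tpi1 at 396 and Ldha at 369 CPM. Scarce members included Slc2a3 at 0 CPM, Slc16a3 at 0.78, Pfkfb3 at 1.87 and Hk2 at 2.81 CPM. Hypoxia-induced members were mixed, with Ndrg1 at 0.47, Ankrd37 at 5.07, Ddit4 at 6.00, Bhlhe40 at 8.58, Vegfa at 26.8, Bnip3l at 162 and Higd1a at 287 CPM.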

How the results depend on the processing

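No paired analysis was possible because the labels number the mice but give the groups no replicate numbers, and the pool numbers used here follow accession order. Comparisons between classes kept the library as a block. Of member-class pairs called with PT2385 (1 as reported), DESeq2 gave 6, no filter on low counts 5, stricter cells 2, doublets kept 2 and 1 mean per group 0, and leaving out 1 pool gave 0 to 3. The comparisons without a call gave, with no filter, 6 (ICB), 13 (combination against ICB), 15 (combination against PT2385) and 10 (interaction). With DESeq2 they gave 1, 2, 0 and 2, and leaving out 1 pool gave 0 to 1, 0 to 11, 0 to 5 and 0 to 2. Combination against PT2385 gave 1 with library totals and 1 with doublets kept. The interaction could not be fitted without the untreated pool. The cause of these changes was not tested.

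Members called between classes ranged over the alternatives from 28 to 33 (macrophages against microglia), 28 to 30 (Arg1 against Nos2), 17 to 23 (cycling T cells) and 12 to 19 (CD8 against CD4 T cells). Direction turned for Bnip3l between macrophages and microglia with library totals (-0.26), and for Ldha (0.12), Pkm (0.12), Ddit4 (0.016), Slc16a3 (0.24) and Pgam1 (0.14) between CD8 and CD4 T cells with clusters as classes. Doublets kept, library totals, cells without Mki67 and Top2a, and leaving out both combination pools were chosen after seeing the data. Depth limits Adm, Car12 and Slc2a3 in macrophages, regulatory T cells (40 cells in the smallest pool) and treatment contrasts of 2 against 2 pools.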
